A study of Mus musculus with 48 samples.

Results

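The lysate RNA of 4T1 cells expressing the TOB1-binding mutant of CNOT7 was compared with the lysate RNA of cells carrying the control vector. The members are 10 of the 48 libraries of the series, namely the 5 E247A/Y260A input libraries and the 5 vector input libraries, taken by their labels and paired by replicate number (6 to 10). 4T1 is a mouse mammary tumor cell line, for which the labels give the strain as BALB/cfC3H, and both groups are this 1 line. The vector cells carried the 8166-M24-658 control vector. The other cells expressed human FLAG-tagged CNOT7 with the E247A/Y260A substitutions. According to the study's methods, the CNOT7 cDNAs were driven by the murine Pol2 promoter in a modified pFUGW lentiviral backbone, whereas the control carried a noncoding stuffer in a different lentiviral backbone, so the effects of cDNA and backbone cannot be told apart. The study's methods state blasticidin selection after infection for over-expression constructs. No other treatment is named, no age applies, and the labels name the input RNA as an rRNA-depleted transcriptome. An input is the part of a native lysate set aside before precipitation, so it reads steady-state RNA of the cleared lysate and not RNA bound to CNOT7. The sources do not say whether same-group lysates came from separate transductions, so the p-values measure the spread between these lysates.

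CNOT7 is a catalytic subunit of the CCR4-NOT complex, which shortens the poly(A) tails of mRNAs and thereby starts their decay. TOB1 and the other BTG/TOB proteins bind CNOT7 and link it to RNA-binding proteins that select transcripts, and CNOT1 is the scaffold that holds the complex together. The E247A/Y260A form is the one that does not bind TOB1 and keeps CNOT1, M141R is the one that does not bind CNOT1, and D40A lacks deadenylase activity. The comparison asks which transcripts differ in level when the form without TOB1 binding is expressed on top of the cells' own Cnot7.

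The libraries were shallow. Total counts lay between 421975 and 617222 (median 615718) in the 5 E247A/Y260A inputs and between 425297 and 647077 (median 544815) in the 5 vector inputs. The library kit was directional, and the strand on which reads were counted is not given in the sources used here. Several mRNAs that are abundant in cultured cells had almost no counts: Gapdh had 0 to 9 counts per library, Vim 0 to 1, Krt8 0 to 6 and Actb 7 to 38. In GENCODE M21, an annotation of GRCm38, 27.2% of the table's gene models overlap an exon of a gene on the opposite strand, but 76.5% of the 1861 annotated models with a mean of 20 or more counts did so. Which strand of such a locus gave the counts of a model is not known here. Low counts of a model therefore do not show that its mRNA was scarce. Models described by library are named together with a gene on the opposite strand where there is one. Of the 8 epithelial markers, Epcam, Cdh1 and Krt7 passed the filter on low counts, whereas Krt8, Krt18, Krt19, Cldn7 and Cldn3 did not. The 8 summed to 91.2 to 186 counts per 1000000 scaled counts (CPM) in E247A/Y260A inputs and to 83.7 to 199 in vector inputs. No fibroblast or endothelial marker passed the filter, and the fibroblast marker Lum was at 0 in all 10 libraries. Adipocyte and erythroid markers summed to 29.9 to 84.1 CPM and 27.7 to 121 CPM, with Fabp4 and Hbb-bs at 0 in all libraries and Alas2 the member that passed the filter. Leukocyte markers summed to 63.1 to 88.2 CPM in E247A/Y260A inputs and to 66.5 to 122 in vector inputs, of which most lay on Csf1r, a model opposite Hmgxb3.

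No gene model passed the test between the 2 groups. Of the 3030 models tested, 0 were higher and 0 were lower in E247A/Y260A input at an adjusted p under 0.05 (0.0% called in either direction, edgeR quasi-likelihood test with the replicate number as a block and Benjamini-Hochberg adjustment). The smallest adjusted p was 0.519. At an unadjusted p under 0.05, 89 models (2.94%) were higher and 55 (1.82%) lower, 4.75% of the models in all. DESeq2 with the same block called 0 models as well, with an unadjusted p under 0.05 for 31 higher and 24 lower models, and limma-voom called 0, with 72 and 78. The median log2 fold change over all models, written throughout as E247A/Y260A minus vector, was −0.01. The 5th and 95th percentiles were −0.41 and 0.49.

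How small a difference these lysates could show depended on the counts behind a model. The standard error of the log2 fold change had a median of 0.25 and its 10th and 90th percentiles were 0.15 and 0.35. For 2543 of the 3030 models (83.9%), the 95% interval of the difference lay within 2-fold in both directions, so a 2-fold change of those transcripts was outside the interval. Among the 641 models with a mean of 100 or more counts, 82.8% had an interval within 1.5-fold. Among the 1151 models with a mean under 20 counts, 65.7% had an interval within 2-fold, so a 2-fold difference stayed inside the interval of the rest.

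**Figure D1:**
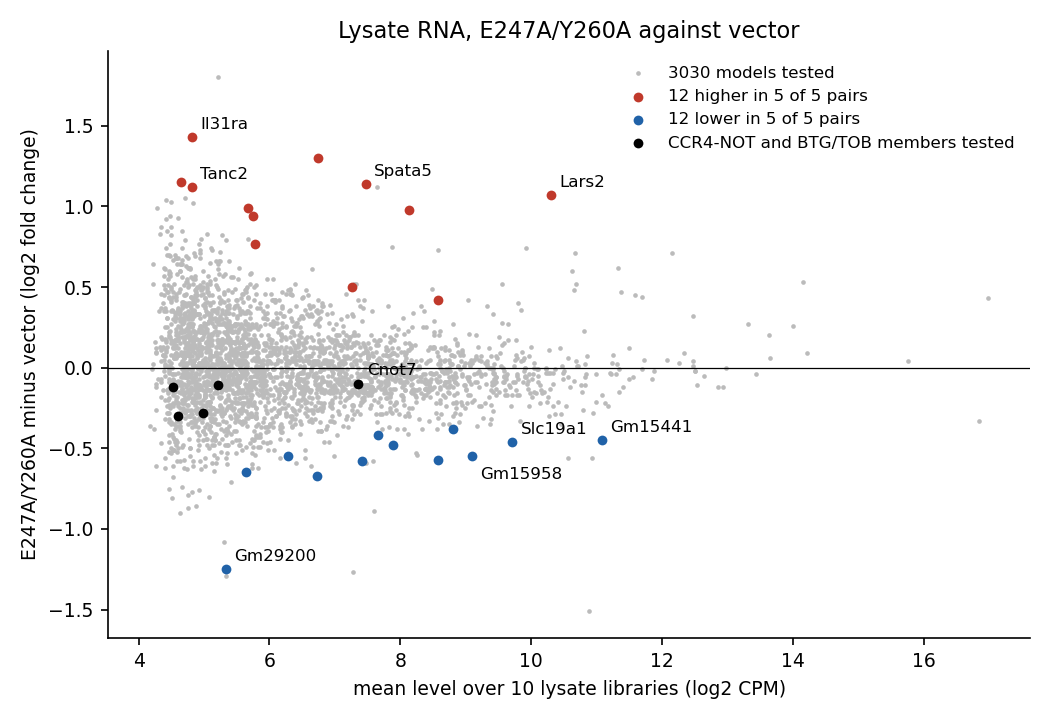
The log2 fold change of E247A/Y260A input against vector input (vertical axis) is plotted against the mean level over the 10 libraries in log2 CPM (horizontal axis) for 3030 models. Red and blue points are the 12 models per direction with the smallest unadjusted p among those of 1 sign in 5 of 5 pairs, and black points are the CCR4-NOT and BTG/TOB members tested; Lars2 lies at 1.07, Gm29200 at −1.25 and Cnot7 at −0.10, and none passed the adjusted test.

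The replicate number separated the libraries more than the construct did. Over the 3030 models, 75.9% of the sum of squares of log2 CPM lay between replicate numbers, 4.89% between the 2 constructs, and 19.2% in neither. The mean square between constructs was 1.02 times the residual mean square, whereas that between replicate numbers was 3.96 times it. Among the models with a mean count above the median these ratios were 0.93 and 5.35. Deviations from the group mean in same-numbered lysates correlated at 0.67 for number 6, 0.22 for 7, 0.31 for 8, 0.60 for 9 and 0.82 for 10. For 4 of the 5 numbers the partner was also the vector lysate that correlated best, while E247A/Y260A lysate 7 reached 0.41 with a vector lysate of another number. Without the block, an unadjusted p under 0.05 was reached by 13 higher and 3 lower models, and again 0 passed the adjusted test.

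The difference of the mouse Cnot7 model lay within the spread between lysates. Its counts were 153, 88, 59, 36 and 76 in E247A/Y260A replicates 6 to 10 and 104, 104, 80, 63 and 75 in the vector replicates. Scaled to CPM these were 259, 138, 129, 118 and 133 against 201, 150, 167, 174 and 128. The groups overlapped, and E247A/Y260A was higher in 2 pairs and lower in 3. On the log2 CPM scale the means were 7.25 ± 0.45 and 7.38 ± 0.24 (SD, n = 5 each), a paired difference of −0.12 ± 0.36. The exact sign-flip permutation test over the 5 pairs gave p = 0.438 (two-sided), where 0.0625 is the smallest p that 5 pairs allow, and the exact permutation test of 5 against 5 gave p = 0.627. In the edgeR fit the log2 fold change was −0.10 with a 95% interval of −0.45 to 0.26. The transduced cDNA is human and the table is of mouse genes. The Cnot7 model also shares exon positions with Zdhhc2, a palmitoyltransferase gene on the other strand. This value is therefore not a measure of the expression of the construct. Whether reads of the human cDNA aligned to the mouse model was not tested. Zdhhc2 itself was at 1832, 2422, 2692, 3007 and 1768 CPM in E247A/Y260A lysates and at 1881, 2421, 2871, 2586 and 2097 in vector lysates, with a log2 fold change of −0.03 (SE 0.14).

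The other CCR4-NOT subunits were thinly counted. Besides Cnot7, 3 of the 12 listed subunits passed the filter, and none of the 4 passed the test in either direction. The scaffold Cnot1, opposite 4930513N10Rik, had 10.2, 36.2, 32.9, 13.1 and 31.5 CPM in E247A/Y260A lysates and 38.6, 28.9, 33.5, 19.4 and 28.9 in vector lysates, a log2 fold change of −0.28 (95% interval −0.98 to 0.41). Its groups overlapped, and the lowest library of all was E247A/Y260A replicate 6. Cnot3, a regulatory subunit opposite Leng1, had a log2 fold change of −0.30 (−1.04 to 0.43), and Cnot6l, a second deadenylase of the complex with no gene opposite, −0.12 (−0.87 to 0.63). Cnot2, Cnot4, Cnot6, Cnot8, Rqcd1, Cnot10, Cnot11 and Tnks1bp1 were below the filter, with at most 36 CPM in any library. The median of the 4 subunits tested was −0.20, beside −0.01 over all models.

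TOB1, the partner that the mutant cannot bind, could not be measured. Tob1 had 0 counts in 8 of the 10 libraries and 1 count in E247A/Y260A replicate 10 and in vector replicate 6, so a group total of 1 count gives no fold. Tob2 had 1 count in each of 3 libraries, Btg2 1 in each of 3, and Btg4 0 in all 10. Btg3, opposite the adhesion gene Cxadr, was below the filter at 6.78 to 24.1 CPM in E247A/Y260A lysates and 9.66 to 18.7 in vector lysates. Btg1, an antiproliferative member of the family with no gene opposite, was the only one tested. It had 30.5, 40.9, 6.57, 65.4 and 19.3 CPM in E247A/Y260A lysates and 21.2, 47.6, 12.6, 94.1 and 13.6 in vector lysates, and the log2 fold change was −0.11 (95% interval −0.71 to 0.50). In both groups its highest value was in replicate 9 and its lowest in replicate 8, and the 2 ranges overlapped.

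Of the models with 1 sign in all pairs, 115 (3.80%) were higher and 102 (3.37%) lower in 5 of 5 pairs. The 12 per direction with the smallest unadjusted p and a mean of 10 or more counts are described next. None of the 24 passed the adjusted test, with adjusted p from 0.519 to 0.971 for the 12 higher and 0.519 to 0.987 for the 12 lower. Of the 12 higher models 3 overlap a gene on the opposite strand, and of the 12 lower models 9 do.

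Lars2, the mitochondrial leucyl-tRNA synthetase, had the most counts among the 12 higher models. It was at 870, 912, 92, 2680 and 3575 CPM in E247A/Y260A replicates 6 to 10 and at 160, 406, 90, 2437 and 1354 in the vector replicates. Replicates 9 and 10 were high and replicate 8 was low in both groups, and the groups overlapped throughout. The log2 fold change was 1.07 (SE 0.26, unadjusted p = 0.000807, adjusted p = 0.519). In replicates 8 and 9 the pair differed by only 0.03 and 0.14 on the log2 CPM scale, whereas in replicate 6 it differed by 2.41.

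Spata5, which encodes an AAA-type ATPase and lies opposite Nudt6, showed a similar order of libraries. It was at 45.8, 159, 19.7, 405 and 526 CPM in E247A/Y260A lysates and at 7.73, 41.9, 18.8, 349 and 204 in vector lysates, a log2 fold change of 1.14 (SE 0.26, adjusted p = 0.519). The model ENSMUSG00000089855, which has no entry in GENCODE M21, had 33.9, 102, 4.38, 294 and 280 CPM against 5.79, 18.8, 2.09, 208 and 131, and it had the smallest unadjusted p of all models (0.000189, log2 fold change 1.30). Il31ra, a subunit of the interleukin-31 receptor, had 6.78, 18.9, 4.38, 75.2 and 84.1 CPM against 3.86, 2.89, 4.18, 38.8 and 23.8, with the highest log2 fold change of the 12 (1.43, SE 0.36). Camk1d, a calcium/calmodulin-dependent kinase, had a log2 fold change of 0.94 (SE 0.28). In both groups all of these had their highest values in replicates 9 and 10.

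These models varied together with others, of which Mir6236 and Gm42418 were chosen after their values were seen; B930036N10Rik and Ccdc107 also correlated with Lars2, at 0.92 and 0.91. Lars2, ENSMUSG00000089855, Spata5, Il31ra, Mir6236, Gm42418 and Camk1d had pairwise correlations of log2 CPM between 0.88 and 0.98 (median 0.94) over the 10 libraries, which share cell line, preparation and replicate numbers. Most of their paired differences also moved together (median correlation 0.74, lowest −0.03, once the means of construct and replicate number were removed). The median of the 7 paired differences was 1.97 in replicate 6, 1.75 in replicate 7, 0.03 in replicate 8, 0.21 in replicate 9 and 1.35 in replicate 10. Gm42418, a long noncoding RNA model overlapped by noncoding models on the other strand, is known as background to share sequence with the ribosomal RNA precursor. It had 1327, 2105, 226, 4660 and 8087 CPM in E247A/Y260A lysates and 436, 980, 590, 4040 and 3367 in vector lysates (log2 fold change 0.62, SE 0.30). It was lower in the E247A/Y260A lysate of replicate 8 and higher in the other 4 pairs. How far incomplete rRNA depletion takes part in these values was not tested.

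Mir6236 is the 1 microRNA locus among the 7 models. Its mature sequence is shown to identify the locus, and the counted model, at chr9:110281287-110281409 in GRCm38, is longer than it. The capitals mark the seed, bases 2 to 8. RefSeq places it on the plus strand of GRCm38.p6 at chr9:110281353-110281371.
mmu-miR-6236: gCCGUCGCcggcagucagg
The model had 20.3, 179, 6.57, 461 and 603 CPM in E247A/Y260A lysates and 9.66, 41.9, 8.37, 529 and 162 in vector lysates. It was higher in 3 pairs and lower in 2, with a log2 fold change of 1.12 (SE 0.31, adjusted p = 0.572). With no filter on low counts the log2 fold change was 1.08 and passed the adjusted test (adjusted p = 0.0109). The counts are those of a standard long-RNA library, so they do not measure the mature microRNA.

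**Figure D2:**
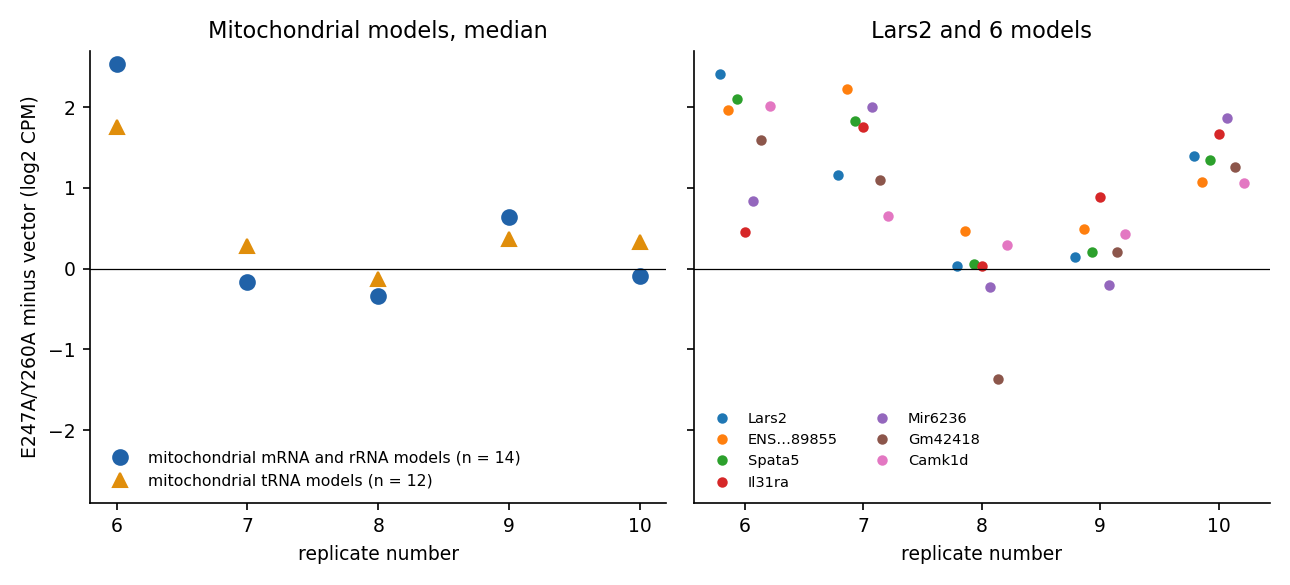
Both panels give the paired difference, E247A/Y260A minus vector in log2 CPM, by replicate number. The left panel shows the median over mitochondrial models (2.53 for mRNA and rRNA models in replicate 6 and −0.34 to 0.64 in the others) and the right panel shows Lars2 and 6 models that varied with it, which lay between −0.23 and 0.49 in replicates 8 and 9 apart from Gm42418 at −1.37 in replicate 8 and Il31ra at 0.89 in replicate 9.

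The remaining higher models followed other orders. Tanc2, a postsynaptic scaffold protein gene with no gene opposite, had 23.7, 25.2, 37.2, 42.5 and 42.1 CPM in E247A/Y260A lysates and 17.4, 8.66, 16.7, 11.1 and 22.1 in vector lysates. The lowest E247A/Y260A library lay above the highest vector library, with a log2 fold change of 1.12 (SE 0.31, unadjusted p = 0.0021, adjusted p = 0.572). In all, 3 models were higher without overlap of the groups (0.099% of the 3030) and 0 were lower (0.0%). Gm12898, opposite AU022252 and outside the naming rule, is another of the 3, at 45.8 to 58.2 CPM against 10.5 to 41.5 (log2 fold change 0.62, SE 0.27). Mamdc4, which encodes a MAM domain protein of endosomal membranes, had 57.6, 75.5, 48.2, 55.6 and 71.8 CPM against 19.3, 27.4, 46.0, 24.9 and 40.8. Its E247A/Y260A libraries all lay above 46.0, the highest vector library, and the log2 fold change was 0.99 (SE 0.26, adjusted p = 0.572).

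March1, an E3 ubiquitin ligase that removes MHC class II from the cell surface, was at 13.6, 36.2, 28.5, 49.0 and 24.5 CPM in E247A/Y260A lysates and at 1.93, 21.7, 18.8, 16.6 and 8.50 in vector lysates, a log2 fold change of 1.15 (SE 0.34, adjusted p = 0.656). It lies opposite Gm15354. Tmc5, of the transmembrane channel-like family, had 54.2, 72.3, 76.7, 81.7 and 43.8 CPM against 25.1, 44.8, 39.8, 47.1 and 34.0, and only replicate 10 of the E247A/Y260A group lay within the vector range (log2 fold change 0.77, SE 0.23). The model ENSMUSG00000082697, absent from GENCODE M21, had 1041, 77.0, 101, 127 and 424 CPM against 684, 53.4, 39.8, 127 and 81.6, with replicate 6 the highest in both groups and a pair without a visible difference in replicate 9 (log2 fold change 0.98, SE 0.25). The antisense models LOC102639045 and 1700061H18Rik, the second opposite the coiled-coil gene Ccdc68, had log2 fold changes of 0.42 (SE 0.14) and 0.50 (SE 0.17).

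**Figure D3:**
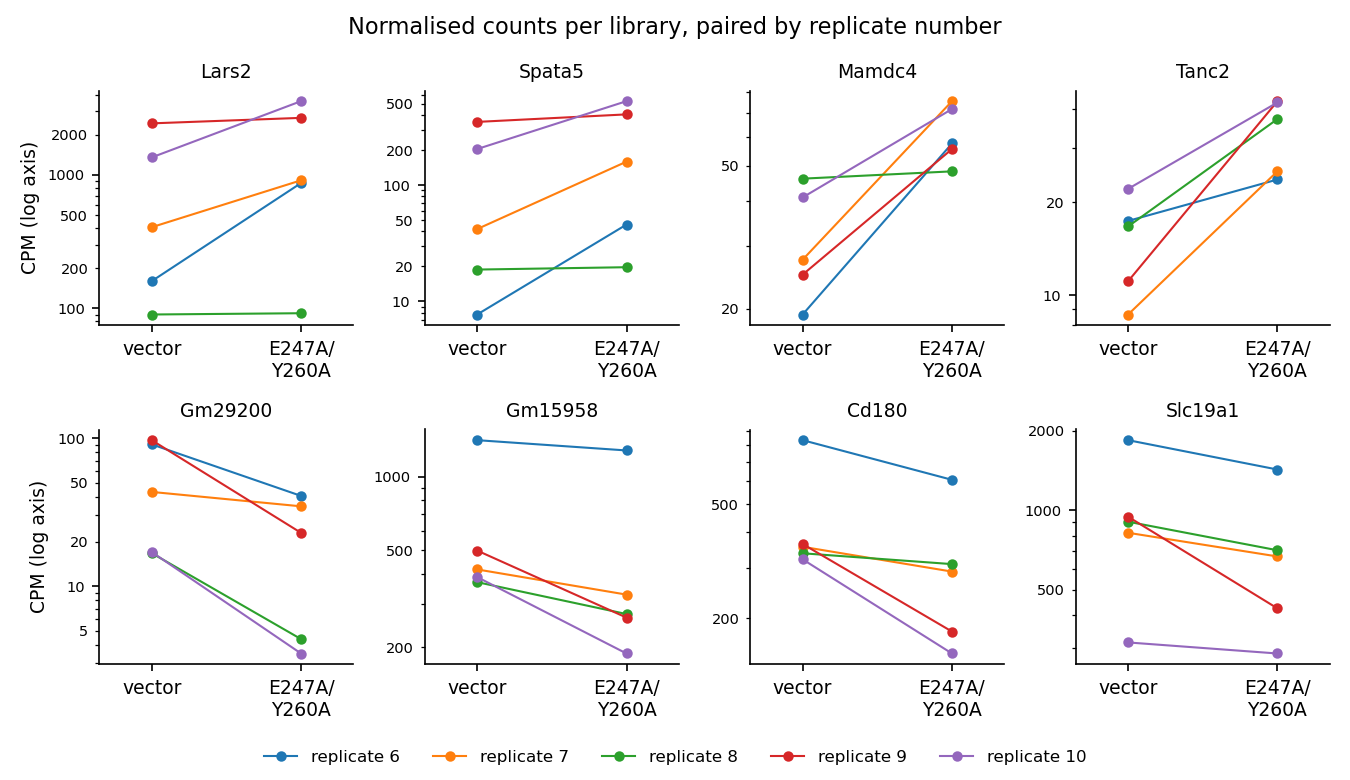
CPM on a log axis in vector and E247A/Y260A lysates for 4 of the higher and 4 of the lower models, with 1 colour and line per replicate number. Tanc2 and Mamdc4 show higher E247A/Y260A libraries without overlap, while for Lars2 and Spata5 the replicate numbers spread further than the constructs and replicate 8 is nearly flat.

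Among the 12 lower models, Gm29200 had the largest difference. It is an antisense model opposite Lama3, which encodes a laminin chain of epithelial basement membranes. It was at 40.7, 34.6, 4.38, 22.9 and 3.50 CPM in E247A/Y260A lysates and at 90.8, 43.3, 16.7, 96.9 and 17.0 in vector lysates. Each E247A/Y260A library was below its own partner, replicates 8 and 10 were low in both groups, and the groups overlapped. The log2 fold change was −1.25 (SE 0.31, unadjusted p = 0.00103, adjusted p = 0.519). The Lama3 model itself had 50.9, 99.0, 24.1, 190 and 43.8 CPM against 23.2, 110, 56.5, 227 and 34.0 and a log2 fold change of −0.05 (SE 0.25), so the models on the 2 strands of this locus had different values.

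Gm15958 lies opposite Ccbe1, an extracellular protein gene of lymphatic growth. It was at 1278, 329, 274, 265 and 189 CPM in E247A/Y260A lysates and at 1408, 417, 370, 498 and 388 in vector lysates, with replicate 6 far above the rest in both groups. Its log2 fold change was −0.55 (SE 0.15, adjusted p = 0.572). Cd180, a Toll-like receptor homologue of B cells that lies opposite the kinase gene Mast4, showed a similar order with 607, 291, 309, 180 and 151 CPM against 834, 355, 337, 363 and 321 (log2 fold change −0.57, SE 0.16). Leaving replicate 6 aside, every E247A/Y260A library of these 2 models was below every vector library. This was read after the values were seen, for models already chosen as lower in every pair. How many of all models separate in this way without replicate 6 was not counted. With all replicates kept, 0 of the 3030 models were lower without overlap of the groups. Slc19a1, the reduced folate carrier with no gene opposite, had 1424, 668, 705, 425 and 287 CPM against 1839, 821, 904, 944 and 316 (log2 fold change −0.46, SE 0.16). Its pair in replicate 9 differed most and that in replicate 10 least.

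Other lower models carried a known gene on either strand. Apobec3, a cytidine deaminase that restricts retroviruses, lies opposite the Polycomb gene Cbx7 and had 54.2, 69.2, 46.0, 150 and 84.1 CPM against 71.5, 130, 62.8, 163 and 204 (log2 fold change −0.67, SE 0.20, adjusted p = 0.715). Dpcd, opposite the F-box gene Fbxw4, had 229, 148, 98.6, 108 and 77.1 CPM against 297, 160, 213, 241 and 91.8 (log2 fold change −0.58, SE 0.18), with the wide gaps in replicates 8 and 9. Il27, a cytokine subunit opposite the apolipoprotein B receptor gene Apobr, had 103, 56.6, 63.5, 39.2 and 28.0 CPM against 182, 73.6, 77.4, 74.8 and 35.7 (log2 fold change −0.55, SE 0.20). For these 3 the groups overlapped and the paired differences had 1 direction.

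Gm15441 lies opposite Txnip, the thioredoxin-interacting protein gene that responds to glucose. It had 3438, 2597, 1310, 1608 and 447 CPM in E247A/Y260A lysates and 4319, 2733, 1948, 2459 and 706 in vector lysates (log2 fold change −0.45, SE 0.15, adjusted p = 0.971). The values were highest in replicate 6 and lowest in replicate 10 in both groups. Gm10644, opposite the adhesion receptor gene Adgrl1, had a log2 fold change of −0.38 (SE 0.14), Gm26602, opposite R3hdm4, −0.42 (SE 0.15), the noncoding model C230088H06Rik −0.48 (SE 0.15) and the antisense model Gm28960 −0.65 (SE 0.24).

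**Figure D4:**
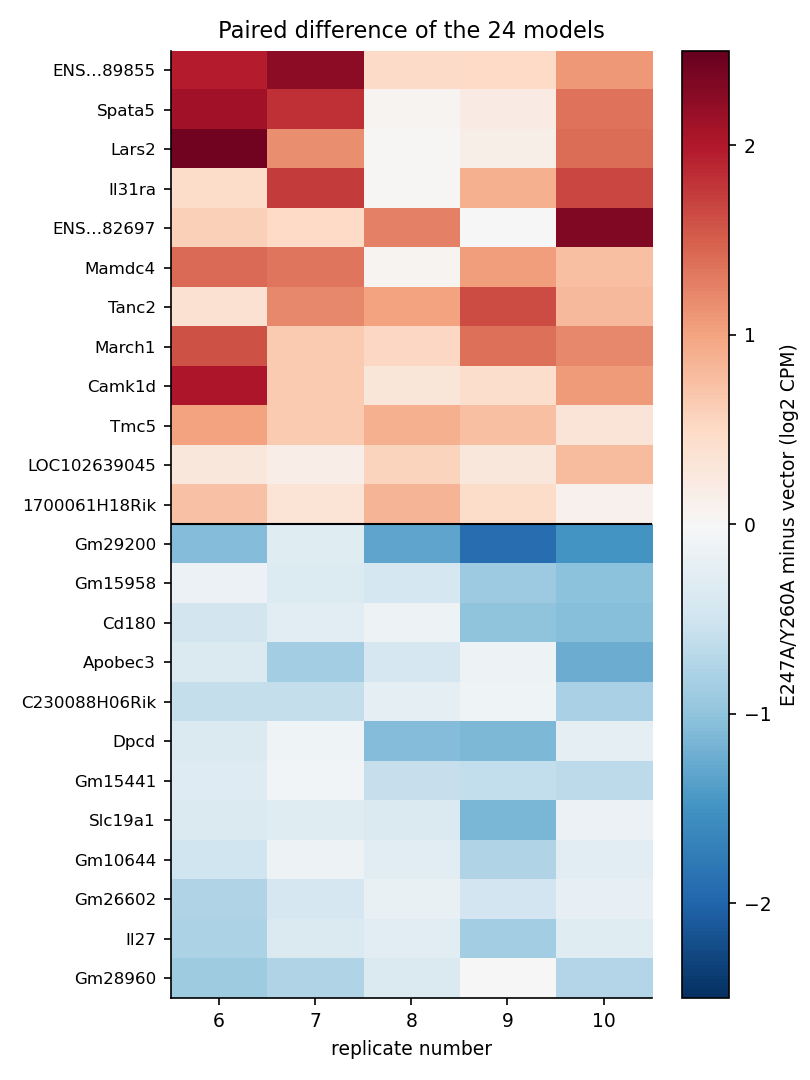
Paired difference, E247A/Y260A minus vector in log2 CPM, for the 24 models (rows, 12 higher above the line and 12 lower below it) in each replicate number (columns). By the naming rule each row has 1 sign; the size differs between columns, as for Lars2 with 2.41 in replicate 6 and 0.03 in replicate 8, while Gm29200 was −1.91 in replicate 9.

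Whether any model passed depended on the pair of replicate 8 and on the filter on low counts. Without replicate 8, 13 of 3317 models (0.392%) passed the adjusted test, 6 higher and 7 lower, whereas leaving out any other number gave 0 with the filter in place. For 9 of the 13 the pair of replicate 8 had the opposite sign. Gm11651, opposite Ace, the angiotensin-converting enzyme gene, is one of them. It was at 49.2, 23.6, 112, 58.8 and 149 CPM in E247A/Y260A replicates 6 to 10 and at 251, 163, 31.4, 38.8 and 612 in vector lysates, and the log2 fold change was −1.27 with all pairs (SE 0.46, adjusted p = 0.987) and −1.94 without replicate 8 (adjusted p = 0.00252). Gm12223, opposite Csf2, the gene of the cytokine GM-CSF, had 103, 36.2, 134, 111 and 210 CPM against 187, 160, 67.0, 122 and 750, and −0.89 (adjusted p = 0.987) became −1.31 (adjusted p = 0.0119). Pkp1, a desmosomal plakophilin, had 52.5, 47.2, 134, 52.3 and 180 CPM against 131, 108, 29.3, 69.2 and 406, and −0.55 became −1.10 (adjusted p = 0.0119). In each of these the E247A/Y260A lysate of replicate 8 was above its partner by 0.96 to 2.05 on the log2 CPM scale.

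The other models called without replicate 8 were named after their values were seen. Apol7d, opposite the fibronectin gene Fn1, was at 1302, 1143, 1161, 1167 and 1146 CPM in E247A/Y260A lysates and at 2687, 1689, 1011, 1755 and 1966 in vector lysates. Its E247A/Y260A level was nearly constant, and the log2 fold change went from −0.56 (adjusted p = 0.768) to −0.74 (adjusted p = 0.0418). D030025P21Rik, opposite Ltbp2, an extracellular matrix protein gene, went from −0.59 to −0.80, Myadml2os from −0.61 to −0.98, and 4930578I06Rik from −1.29 to −1.92. On the higher side 5 are given here, Lars2 (1.26), Spata5 (1.20), ENSMUSG00000089855 (1.25), Gm42418 (1.05) and Mamdc4 (1.23), with adjusted p between 0.0176 and 0.0434. These calls describe 4 pairs, and none of them stood with all 5 under the filter on low counts. With no filter on low counts 9 of 22005 models (0.0409%) passed, 6 higher and 3 lower, of which 5 were also among the 13: Lars2, Spata5, ENSMUSG00000089855, Gm11651 and Gm12223. The others included ENSMUSG00000082697 (log2 fold change 0.95, adjusted p = 0.00729), Mir6236 (1.08, adjusted p = 0.0109) and the 7SL RNA model Rn7s1. Rn7s1 was at 0 to 3564 CPM in E247A/Y260A lysates and 0 to 6263 in vector lysates. Its log2 fold change was −1.51 with a standard error of 1.62 in the filtered fit, and 0.18 without replicate 8.

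Mitochondrially encoded models had their widest difference in the pair of replicate 6. The mitochondrial genome encodes respiratory chain subunits, 2 rRNAs and the tRNAs that translate them. Of the 26 mitochondrial models tested, 25 had a positive log2 fold change (1452 of all 3030 did). An unadjusted p under 0.05 was reached by 8, all higher (2.94% of all models were), and 0 passed the adjusted test with the filter on low counts in place. The median was 0.47. The median paired difference was 2.31 in replicate 6, −0.03 in 7, −0.20 in 8, 0.59 in 9 and −0.02 in 10. Vector replicate 6 held 4.42% of its counts on mitochondrial models, below the 7.51% to 16.3% of the other 9 libraries. Without replicate 6 the median was 0.07 and 1 of the 26 was higher at an unadjusted p under 0.05. The 12 tRNA models, which held 6 of the 8, had paired medians of 1.76, 0.28, −0.13, 0.37 and 0.33 and a median of 0.27 without replicate 6, whereas that of the 14 mRNA and rRNA models was −0.06. For example, mt-Nd1, a subunit of complex I, was at 1951, 693, 800, 1552 and 1095 CPM in E247A/Y260A lysates and at 257, 632, 757, 872 and 1053 in vector lysates (log2 fold change 0.74, SE 0.31). The large rRNA mt-Rnr2 did not follow it, with a log2 fold change of 0.04 (SE 0.18).

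Lists of genes with roles around the deadenylase were read by counts, since they were drawn up with results of these data known. Among the list members given below by their log2 fold change, Pcf11, Fip1l1, Rb1, Kif20a, Usp18, Esrp2, Itgav, Hsp90b1, Pfkp, Pfkm, Hk1, Fdft1, Krt7, Alas2, Malat1, Arhgap26, Ube2l3 and Cenpo also overlap an exon on the opposite strand. None of their members passed the adjusted test. Of 21 RNA-binding adaptors, which guide deadenylases to transcripts, 2 passed the filter: Cpeb3, opposite A330032B11Rik, with a log2 fold change of −0.18 (SE 0.15), and Pum2 with −0.28 (SE 0.38). Of 18 cleavage and polyadenylation factors 3 were tested, Pcf11 at 0.16 (SE 0.28), Cstf3 at −0.22 (SE 0.27) and Fip1l1 at −0.10 (SE 0.27). Of 46 other mRNA decay factors 9 were tested, with a median of 0.14. The best counted were Ccrn4l, the rhythmic deadenylase nocturnin, at 0.25 (SE 0.14) and higher in 5 of 5 pairs, Edc3, a decapping enhancer opposite Clk3, at −0.17 (SE 0.17), and Exosc9, an exosome subunit opposite Ccna2, at 0.28 (SE 0.20). Smg6, the endonuclease of nonsense-mediated decay, opposite Srr, was the 1 of 9 with an unadjusted p under 0.05 (4.75% of all models in either direction), at 55.9, 73.9, 32.9, 85.0 and 110 CPM against 75.3, 67.8, 121, 96.9 and 172 (log2 fold change −0.56, SE 0.24, adjusted p = 0.987). Its replicate 7 pair had the other sign, and without replicate 8, whose pair differed most, the log2 fold change was −0.30 (adjusted p = 0.815).

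Short-lived transcripts are natural readouts of decay, and few were counted. Of 40 listed early response genes, 6 were tested and 0 had an unadjusted p under 0.05 (median −0.11). The AP-1 gene Fosl1, opposite Ccdc85b, had a log2 fold change of 0.33 (SE 0.25), the prostaglandin synthase gene Ptgs2 0.26 (SE 0.35), and the chemokine gene Cxcl1 −0.63 (SE 0.37). Cxcl1 was at 57.6, 11.0, 15.3, 6.54 and 15.8 CPM in E247A/Y260A lysates and at 40.6, 31.8, 33.5, 36.0 and 17.0 in vector lysates, lower in 4 of 5 pairs with replicate 6 as the exception. The models on the strand opposite these genes were read after the data were seen. They held 4 tested members with a median of −0.29, which turned positive with no filter on low counts. Among them Junos, opposite Jun, was at 459, 162, 103, 94.8 and 59.6 CPM against 479, 192, 151, 152 and 100, lower in 5 of 5 pairs (log2 fold change −0.41, SE 0.16, adjusted p = 0.987). The other of the 4 with an unadjusted p under 0.05 was Gm12223 (1.82% of all models were lower at that p).

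Cell state lists had medians between −0.19 and 0.09. The 4 G1 and S phase genes tested had a median of −0.01, with Cdk4, opposite Tspan31, at −0.02 (SE 0.15), Rb1 at 0.05 (SE 0.14) and the replication factor Gins2, opposite Gse1, at −0.09 (SE 0.18). The intervals of Cdk4 and Rb1 lay within −0.35 to 0.36. The 4 G2 and M phase genes had a median of 0.09, with Ccna2 at 0.26 (SE 0.22), Kif20a at 0.13 (SE 0.26) and Kif11 at 0.01 (SE 0.33). For interferon response genes 2 of 31 were tested, Usp18 at 0.04 (SE 0.26) and B2m at 0.11 (SE 0.28). Endoplasmic reticulum and integrated stress genes had a median of −0.19 over 7 members. Their best counted members are the chaperone genes Hspa5 at −0.19 (SE 0.22), Canx at −0.27 (SE 0.19) and Hsp90b1 at −0.39 (SE 0.19, lower in 4 of 5 pairs). Of the 6 tested models opposite genes of that list 3 were negative, while 3010026O09Rik (opposite Sqstm1) and Nup62-il4i1 (opposite Atf5) were higher in 5 of 5 pairs (3.80% of all models were) with log2 fold changes of 0.73 (SE 0.27) and 0.85 (SE 0.32) and did not pass the adjusted test.

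Adhesion and metabolic lists did not separate the groups either. Of 30 epithelial and mesenchymal state genes 10 were tested (median −0.11), with the integrin Itgb1 at −0.12 (SE 0.19), the splicing factor Esrp2 at −0.29 (SE 0.19) and Fn1 at −0.11 (SE 0.29). Of 32 extracellular matrix and adhesion genes 11 were tested (median −0.05), with Lama3 as above, Cd44 at −0.47 (SE 0.30) and Itgav at 0.11 (SE 0.30). The 3 glycolysis and hypoxia genes tested were Pfkp at −0.15 (SE 0.15), lower in 5 of 5 pairs, Pfkm at −0.09 (SE 0.26) and Hk1 at 0.16 (SE 0.29). On the opposite strand of that list, Gm17035, opposite the hypoxia gene Ndrg1, was lower in 4 of 5 pairs at −0.35 (SE 0.14, adjusted p = 0.987). The 6 sterol synthesis genes had a median of −0.10, with Sc4mol at 0.05 (SE 0.21), Fdft1 at −0.06 (SE 0.20) and Sqle at 0.42 (SE 0.25). The markers tested were Cdh1 at 0.17 (SE 0.30), Krt7 at −0.30 (SE 0.33), Epcam at −0.02 (SE 0.36), Csf1r at −0.22 (SE 0.21) and Alas2 at −0.23 (SE 0.24).

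The listed nuclear and small noncoding RNAs themselves held 0.226% of counts in E247A/Y260A lysates and 0.319% in vector lysates. The protein-coding model Ccdc107 overlaps Rmrp, the RNA of RNase MRP, on the opposite strand and took between 4.87% and 22.6% of counts in E247A/Y260A lysates and between 3.06% and 19.6% in vector lysates. It was at 70931, 109276, 46171, 280351 and 244155 CPM against 65144, 91005, 31991, 135929 and 216162, higher in 5 of 5 pairs with a log2 fold change of 0.43 (SE 0.17, adjusted p = 0.987). The gap was widest in replicate 9. The Rmrp model had a log2 fold change of 0.23 (SE 0.21) and Malat1 −0.12 (SE 0.20). Galnt2, the name the table gives to the long model ENSMUSG00000092329 opposite 1810008B01Rik, was of similar abundance and above Ccdc107 in replicates 6 and 8 of both groups. It was lower in 5 of 5 pairs, with 151068 CPM in replicate 6 of E247A/Y260A against 190259 in its partner and 66320 against 97575 in replicate 10 (log2 fold change −0.33, SE 0.15, adjusted p = 0.987). Shares of such large models enter the scaling of every other model, and with library size alone as the scale an unadjusted p under 0.05 was reached by 72 higher and 54 lower models.

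The lists of transcripts linked to Cnot7 were examined last. The list of precipitated genes was drawn in part from RIP libraries of the same experiment, so its direction is not independent evidence. It holds 149 models, of which 17 were tested, 8 with a positive and 9 with a negative log2 fold change, 0 with an unadjusted p under 0.05 and a median of −0.01. Its best counted members were Brinp3, opposite Gm29514, at −0.21 (SE 0.18), Sorbs2, opposite Sorbs2os, at −0.13 (SE 0.21) and Gm16596, opposite Eml1, at −0.26 (SE 0.25). The 71 of them with 3 motifs in the 3′ untranslated region gave 11 tested members with a median of −0.04, and the next best counted there, Qtrtd1, was at −0.17 (SE 0.24). Counting all 149, including those below the filter, 93 had a lower and 56 a higher mean CPM in E247A/Y260A lysates. Of all other models, 35.9% were lower and 45.8% higher, a share that is not matched for level. Their summed CPM was lower in 4 pairs and higher in replicate 8, with log2 ratios of −0.15, −0.25, 0.14, −0.15 and −0.22 in replicates 6 to 10. Nearly all of these members have few counts, and the whole list summed to 528 to 1096 counts in a library of the mutant and 592 to 1344 in one of the vector.

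The array lists hold transcripts that moved against Cnot7 in separate arrays of the same cell line. Of the 433 that matched with a T value under 0, 54 were tested, 3 higher and 1 lower model had an unadjusted p under 0.05, and the median was 0.04. As shares these are 5.56% higher and 1.85% lower, beside 2.94% and 1.82% over all models. Slc38a6, an amino acid transporter, was the best counted at 0.06 (SE 0.16), with Slc19a1 and Mtif3, a mitochondrial initiation factor opposite Gtf3a, at 0.01 (SE 0.15) after it. The 3 higher members were Arhgap26 at 0.66 (SE 0.29), Ube2l3 at 0.94 (SE 0.37) and Cenpo at 0.35 (SE 0.16), and the 1 lower was Slc19a1. A separate array list of 293 transcripts with the 3 motifs, which overlaps the former without being a subset of it, had 69 tested members with a median of 0.02, again with Arhgap26, Ube2l3 and Cenpo higher at an unadjusted p under 0.05 and 1 lower, Galnt2, and Pfkfb2, a glycolytic regulator opposite Yod1, was at 0.10 (SE 0.14).

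Models on the strand opposite these genes were read as well. Of the 59 tested models opposite the list with 3 motifs, 44 had a negative log2 fold change, 0 higher and 7 lower ones had an unadjusted p under 0.05 and the median was −0.09. Beside this, 1138 of all 2036 tested models with an opposite-strand exon were negative, with a median of −0.03, and 41 of them (2.01%) were lower at an unadjusted p under 0.05. Of the 7 lower models 6 are given here, Gm29200 (opposite Lama3), Gm15441 (Txnip), D030025P21Rik (Ltbp2), Gm26826 (the forkhead gene Foxj2, log2 fold change −0.87, SE 0.34), Gm9870 (Slain2, −0.56, SE 0.24) and Gm17080 (the nucleoside transporter gene Slc29a1, −0.30, SE 0.14). None passed the adjusted test. Opposite the precipitated list, 15 of 16 tested models were negative with a median of −0.13, in a range of −0.50 to 0.08. Opposite the array list with a T value under 0, 47 of 70 were negative with a median of −0.07, 3 higher (4.29%) and 4 lower models (5.71%) had an unadjusted p under 0.05, and the higher ones were Nme7 and Klhdc9 at 0.61 each and 1700061H18Rik at 0.50. Notumos, opposite the Wnt inhibitor gene Notum, had the largest difference, at 35.6, 18.9, 21.9, 6.54 and 26.3 CPM against 63.7, 49.1, 20.9, 30.5 and 71.4 (log2 fold change −1.08, SE 0.29, adjusted p = 0.572). These opposite-strand readings were added after the data were examined, and no test was made on a list as a whole.

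The mutant lysates were then compared directly with those of the other CNOT7 forms in a fit of all 24 input libraries. Against CNOT7 input 0 of 3848 models passed (0.0%, edgeR quasi-likelihood test, Benjamini-Hochberg), and an unadjusted p under 0.05 was reached by 98 higher (2.55%) and 88 lower models (2.29%). Against M141R input 0 passed, with 100 (2.60%) and 70 (1.82%), and against D40A input, which has 4 replicates, 0 passed, with 46 (1.20%) and 54 (1.40%). With library size alone as the scale the split was 104 and 50 against CNOT7 input and 111 and 14 against D40A input. DESeq2 also gave 0 past the adjusted test in each, whereas with no filter on low counts 2 higher and 24 lower passed against CNOT7 input and 4 lower against M141R input. CNOT7 input replicate 10 had 6 Cnot7 counts where the other CNOT7 inputs had 31 to 142, and without it 0 passed in each comparison, while the models lower than in M141R input at an unadjusted p under 0.05 went from 70 to 188 and those lower than in D40A input from 54 to 89. The interval of the difference from CNOT7 input lay within 2-fold for 61.4% of the models, from M141R input for 68.1% and from D40A input for 58.7%.

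The 24 models were chosen by the difference of these same E247A/Y260A libraries from vector, so their direct differences from the other forms, which reuse these libraries, are given as a description only. Spata5 was higher in E247A/Y260A than in CNOT7 lysates by 1.26 (SE 0.56, unadjusted p = 0.0323) and March1 by 1.27 (SE 0.38, unadjusted p = 0.00263), and March1 was also higher than in M141R lysates by 0.82 (SE 0.35). Its difference from D40A lysates was 0.47 (SE 0.40, unadjusted p = 0.25). Tmc5 differed from M141R by 0.74 (SE 0.25) and from CNOT7 by 0.01 (SE 0.24). The log2 difference of Gm29200 was −1.01 (SE 0.32) from CNOT7 lysates and −0.89 (SE 0.35) from D40A lysates, but −0.10 (SE 0.33) from M141R lysates. Apobec3 had a similar order against CNOT7, D40A and M141R, at −0.58 (SE 0.26), −0.60 (SE 0.27) and −0.13 (SE 0.26). Lars2 differed by −0.18 (SE 0.58) from CNOT7, 0.43 (SE 0.58) from M141R and 0.13 (SE 0.59) from D40A, intervals too wide to separate the forms. No adjusted p of the 24 models was below 0.915 in any of the 3 comparisons. Cnot7 differed from the 3 forms by 0.07 (SE 0.26), −0.15 (SE 0.26) and −0.18 (SE 0.28).

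All 4 CNOT7 forms share the same 5 vector lysates as control, so their differences from vector are not independent and are given side by side only. Mamdc4 was at 0.97 in E247A/Y260A, 0.81 in CNOT7, 0.84 in M141R and 0.61 in D40A. ENSMUSG00000089855 was at 1.31, 1.84, 1.06 and 1.25, and Cd180 at −0.66, −0.64, −0.50 and −0.53. Gm29200 was at −1.29 in E247A/Y260A and −1.19 in M141R, and at −0.28 in CNOT7 and −0.40 in D40A. March1 was at 1.18 in E247A/Y260A, −0.09 in CNOT7, 0.36 in M141R and 0.71 in D40A.

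**Figure D5:**
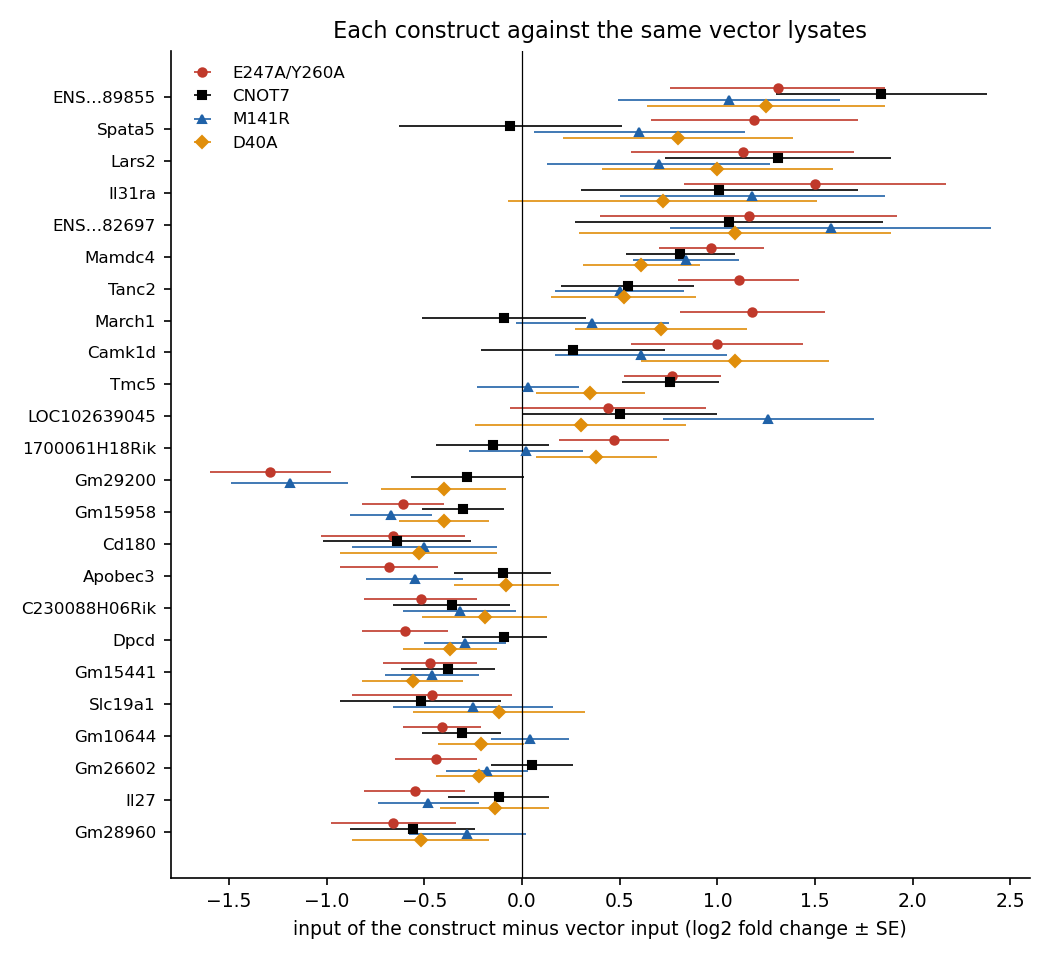
Log2 fold change against vector input, with SE, of the 24 models in the inputs of E247A/Y260A, CNOT7, M141R and D40A, from 1 fit of 24 libraries. Since the vector libraries are shared, points of a row move together when a vector lysate is high or low; Cd180 lies at −0.66, −0.64, −0.50 and −0.53, and March1 lies at 1.18, −0.09, 0.36 and 0.71.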

How the data were processed

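Per the labels, input RNA was rRNA-depleted, and a directional kit was used for the libraries. The submitters' processing notes name BWA, HTSeq and mm9, without versions; annotation and strand setting are not given in the sources used here. The authors deposited raw read counts per gene, unnormalized, for 26899 models (8719 without symbol). All columns matched a sample.

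Counts of the 10 libraries were filtered with filterByExpr, scaled by TMM and tested with edgeR 4.0.16 (quasi-likelihood, two-sided, replicate number as block, Benjamini-Hochberg, threshold 0.05) in R 4.3.3. The forms of CNOT7 were compared in a fit of 24 inputs. CPM are per TMM-scaled library, and log2 CPM use a prior count of 2. Same-numbered lysates were paired because the comparison is defined so. Every number's deviations correlated above 0.1 (lowest 0.22, for number 7, where another number reached 0.41). The paper's per-gene test takes no count model and was not used. DESeq2 1.42.0, limma 3.58.1, other filters and scaling, and each number left out were alternatives. Opposite-strand overlaps were taken with bedtools 2.31.1 from GENCODE M21, in which 344 identifiers are absent.

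Members, lists and tests were chosen with earlier results of these data known. The naming rule takes the CCR4-NOT and BTG/TOB members, up to 12 models per direction by p with 1 sign in 5 of 5 pairs and a mean of 10 or more counts, and the 3 best counted tested members of each other list. The precipitated and array lists came from the study's supplements. Figures were drawn with matplotlib 3.10.9 from values computed in Python 3.11.15. The scripts were tested on simulated data. Replicates of a group differed by at least 10.5 chi-square units per degree of freedom, so none was a repeated library. RIP libraries were not used here. Results of certain genes are not reported here.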

Additional observations from a re-analysis of the deposited data

Results flagged for a closer look

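A library was singled out where its gap to the nearest value of its group of 5, divided by the range of the group, exceeded Dixon's 95% critical value of 0.710. Of 90 groups of values examined, 6 were singled out, and chance singles out about 1 in 20. Replicate 6 accounted for 5 of the 6. Gm15958, opposite Ccbe1, stood at 10.32 log2 CPM in E247A/Y260A input replicate 6, where the other 4 libraries lay between 7.59 and 8.38, and at 10.46 in vector input replicate 6, where the others lay between 8.55 and 8.97. Cd180, opposite Mast4, was at 9.71 in vector input replicate 6 and between 8.35 and 8.52 in the others. Cnot7 was at 8.04 in E247A/Y260A input replicate 6 and between 6.92 and 7.15 in the others. Apol7d, opposite Fn1, was at 10.35 in E247A/Y260A input replicate 6, a small distance from 10.16 to 10.19 in the others. The share of counts on mitochondrial models was 16.3% in E247A/Y260A input replicate 9 and 7.51% to 10.0% in the other 4 libraries of that group.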

How the results depend on the processing

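Counts of models past the adjusted test stayed at 0 in both directions without the replicate block, with DESeq2, with library size alone, with at least 10 counts in every library, with all 24 inputs in 1 fit and with limma-voom. With no filter on low counts, 6 were higher and 3 lower than in vector input, 2 higher and 24 lower than in CNOT7 input, and 4 lower than in M141R input. Leaving out each replicate number gave 0 to 6 higher and 0 to 7 lower against vector, the upper values without replicate 8. At an unadjusted p under 0.05 the 89 higher and 55 lower became 13 and 3 without the replicate block, 31 and 24 with DESeq2, 46 and 37 with at least 10 counts in every library, and 280 and 168 with no filter; the lower ones were 112 without replicate 8 and 31 without replicate 10. The cause was not tested, beyond the number of models tested under each filter. In the direct comparisons the fit without the block gave 7 to 20 models per direction at an unadjusted p under 0.05. The blocked fit is the one reported, and the block changed no adjusted call.

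List medians with no filter were 0.10 for the array list with T under 0, 0.16 for G1 and S phase, 0.00 for glycolysis and hypoxia and −0.12 for the precipitated list. On the opposite strand they were 0.07 for epithelial and mesenchymal state (−0.21 with the filter), −0.04 for interferon response (0.26) and 0.12 for early response genes (−0.29). Leaving out each number in turn moved medians over −0.24 to 0.09 (other decay factors, −0.24 without replicate 7), −0.29 to 0.31 (early response, 0.31 without replicate 10), −0.16 to 0.11 (glycolysis and hypoxia, 0.11 without replicate 8), −0.09 to 0.05 (precipitated list), −0.14 to 0.05 (those with 3 motifs), 0.04 to 0.07 (array list with T under 0) and −0.08 to 0.30 (opposite the stress genes, −0.08 without replicate 10). Of 112 named models tested, 33 changed sign or reached 0.00 in at least 1 alternative. The 24 models were not among them, but they were chosen for 1 sign in 5 of 5 pairs. That choice largely fixed this in advance, so it is no sign of stability. Leaving out each number in turn, the log2 fold change of CCR4-NOT and BTG/TOB members ranged from −0.49 to 0.07 for Cnot1 (0.07 without replicate 6), −0.26 to 0.06 for Btg1 (without 9), −0.28 to 0.02 for Cnot6l (without 8) and −0.23 to 0.00 for Cnot7 (without 9). Models that turned without replicate 6 ranged from −0.27 to 0.53 (Ptgs2), −0.20 to 0.39 (Itgav), −0.04 to 0.18 (Rb1), −0.15 to 0.29 (Sc4mol), −0.13 to 0.61 (mt-Nd6), −0.11 to 0.19 (mt-Rnr2, also without 9) and −0.19 to 0.02 (Gins2, also without 10). Those that turned without replicate 7 ranged from −0.37 to 0.03 (Cstf3), −0.30 to 0.30 (Fn1), −0.26 to 0.12 (Malat1), −0.29 to 0.03 (Qtrtd1), −0.31 to 0.03 (Sorbs2), −0.34 to 0.38 (Epcam, also without 6 and 10) and −0.19 to 0.37 (Kif11, also without 9). Those that turned without replicate 8 ranged from −3.15 to 0.18 (Rn7s1), −0.24 to 0.06 (Fip1l1), −0.33 to 0.04 (Hspa5), −0.25 to 0.13 (Itgb1), −0.16 to 0.44 (Pcf11), −0.29 to 0.11 (Pfkm), −0.11 to 0.07 (Cdk4, also without 9), −0.26 to 0.12 (Lama3, also without 9) and −0.09 to 0.25 (Usp18, also without 6 and 9). Without replicate 9 the turns were in Cdh1 (−0.04 to 0.40), Hk1 (−0.02 to 0.38) and Rmrp (−0.03 to 0.45), and without replicate 10 in Fdft1 (−0.12 to 0.06), Zdhhc2 (−0.09 to 0.04) and Mtif3 (−0.12 to 0.14). In other settings, Epcam was at 0.08 without the block and 0.01 with DESeq2, and Sc4mol was at −0.05 without the block. Kif11 was at −0.05 with DESeq2, −0.03 with library size alone, −0.02 with no filter and −0.06 with all 24 inputs. Mtif3 was at −0.03 without the block, −0.02 with no filter and with all 24 inputs, and 0.00 with DESeq2 and library size alone, as was Cdk4 with at least 10 counts in every library. The directions of these models and of the short lists are not set by these data. Intervals cover the spread between these lysates; without molecular identifiers, reads cannot be taken as single molecules.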
